A study of Mus musculus with 4 samples.

Results

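Dendritic cells were picked out of single-cell RNA sequencing data of mouse bone by 3 sets of marker transcripts, called gates here, so that members were chosen by the measured UMIs of the genes named next, and 370 of 31279 barcodes (1.18%) passed at least 1 of them. A barcode stands for 1 droplet and usually for 1 cell, and its unique molecular identifiers (UMIs) count the RNA molecules read from it. The conventional gate asked for 10 UMIs or more of the MHC class II genes H2-Aa, H2-Ab1 and H2-Eb1 together with at least 1 UMI of Flt3 or Cd209a, and 95 barcodes passed. The mature gate asked for 4 UMIs or more of Ccr7, Fscn1 and Ccl22 together, and 296 barcodes passed. The plasmacytoid gate asked for 2 UMIs or more of Siglech, and 61 barcodes passed. Barcodes with 2 UMIs or more of the B cell genes Cd79a and Cd79b or of the T cell genes Cd3e, Cd3d and Cd3g were left out, as were those with 5 or more of the macrophage genes C1qa, C1qb and C1qc. All barcodes had 1000 to 40000 UMIs, at least 200 genes, at most 10% mitochondrial and at most 0.2% haemoglobin UMIs. Since 80 barcodes passed more than 1 gate, the 3 gates are described apart and their counts add up to more than 370.

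The study asked how cells of bone respond to the loss of mechanical load. Wild-type C57BL/6J mice were tail-suspended for 28 days, which takes the weight off the hindlimbs (hindlimb unloading, HLU), and untreated mice served as controls (Ctrl). The libraries, 2 of Ctrl and 2 of HLU, came from enzyme-treated leg bone (tibia and femur) whose marrow had been washed out. The protocol counts 2 mice per group, so each library is taken as 1 mouse, and p-values measure the spread between these 4 libraries. The design text names postnatal day 28, whereas the study's methods give an older age, so the age of the mice is uncertain. The labels name no altered allele, transgene or drug for either group.

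The libraries differed in ways that bear on every comparison of HLU with Ctrl. They held 57925383 UMIs in Ctrl 1, 61296053 in Ctrl 2, 47819046 in HLU 1 and 99849070 in HLU 2, spread over 10000 barcodes or a few more each. Barcodes with 1% or more of their UMIs from 19 genes of mesenchymal and cartilage cells made up 54.5% and 40.4% of the passing barcodes in Ctrl 1 and Ctrl 2, but 0.938% and 1.69% in HLU 1 and HLU 2. Neutrophil barcodes, with 5% or more of their UMIs from S100a8 and S100a9, numbered 2088 and 3146 in Ctrl and 5142 and 5792 in HLU. Between any pair of libraries 23 to 36 barcodes were shared, and 165 were found in more than 1 library. A doublet caller marked 1970 barcodes, 29 of them among the 370. Hereafter, 4 values in a row stand for Ctrl 1, Ctrl 2, HLU 1 and HLU 2, and CPM is the number of UMIs of a gene per 1000000 UMIs, both summed over the members of a gate in a library.

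Dendritic cells take up antigen and show it to T cells on MHC class II molecules, and they arise in the marrow from progenitors that carry the cytokine receptor Flt3. Conventional dendritic cells hold MHC class II at rest and, on maturation, gain the chemokine receptor Ccr7, which leads them to lymph nodes, the actin-bundling protein Fscn1, and the chemokine Ccl22. Plasmacytoid dendritic cells carry Siglech and make type I interferon when nucleic acids reach their endosomes. In bone all of these are rare beside neutrophils, monocytes and, unless the marrow is removed, B cells.

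The MHC class II genes that set the conventional gate share sequence elements before their start sites, which the regulatory factors RFX and NF-Y are known to bind before the coactivator Ciita is recruited. RefSeq windows of 110 bases that end just before the start (build GRCm38.p6) were searched on both strands for TGATTGG, letters of the Y box that hold the CCAAT core in reverse, and for GCAAC, letters of the X box. Of 8 class II genes looked up, 7 matched, 6 held TGATTGG and 4 held both. Of 32851 windows of this length in the table, 1626 (4.95%) held TGATTGG, 4929 (15%) held GCAAC and 267 (0.813%) held both. The windows of the genes with both, and of H2-DMb1, with TGATTGG only, are shown 5′ to 3′ on the strand of the gene, with both motifs in capitals, because H2-Aa and H2-Eb1 set the conventional gate and the others load its class II molecules or regulate that loading.
H2-Aa: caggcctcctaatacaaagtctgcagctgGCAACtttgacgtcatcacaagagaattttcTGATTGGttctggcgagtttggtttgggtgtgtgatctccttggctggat
H2-Eb1: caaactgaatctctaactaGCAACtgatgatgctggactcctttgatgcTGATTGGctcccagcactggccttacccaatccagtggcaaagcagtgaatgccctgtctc
H2-Oa: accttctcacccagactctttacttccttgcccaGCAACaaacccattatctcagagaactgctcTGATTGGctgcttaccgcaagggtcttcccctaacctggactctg
H2-Ob: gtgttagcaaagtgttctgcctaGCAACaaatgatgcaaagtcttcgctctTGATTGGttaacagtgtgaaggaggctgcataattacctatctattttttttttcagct
H2-DMb1: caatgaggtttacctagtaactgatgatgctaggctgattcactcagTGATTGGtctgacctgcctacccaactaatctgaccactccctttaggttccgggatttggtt

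In H2-Aa, whose window lies at chr17:34287824-34287933 on the minus strand, TGATTGG began 50 bases before the start and GCAAC 81, with 26 bases between them. H2-Eb1 (chr17:34305757-34305866, plus strand) had 25 bases between the motifs, H2-Oa (chr17:34092269-34092378, plus strand) 26 and H2-Ob (chr17:34238795-34238904, plus strand) 23. In H2-DMb1 (chr17:34153081-34153190, plus strand) TGATTGG began 63 bases before the start. A match of letters is a description of the sequence and not a measured binding site. H2-Ab1 had no entry in the table.

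The gates overlapped unevenly. Of the 95 conventional barcodes, 69 also passed the mature gate and not the plasmacytoid one, 15 passed no other gate, and 11 also passed the plasmacytoid gate. Of the 296 mature barcodes, 62 passed that gate alone with 10 or more MHC class II UMIs, 62 passed it alone with fewer class II UMIs and 0.5% or more of their UMIs from the 19 skeletal genes, and 101 passed it alone with neither. Of the 61 plasmacytoid barcodes, 50 passed no other gate and 11 passed the conventional gate, 2 of these the mature gate also. The conventional and mature overlap held 7, 14, 21 and 27 barcodes in the 4 libraries, and the mature-only barcodes with skeletal transcripts and under 10 class II UMIs 11, 46, 1 and 4.

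**Figure D1:**
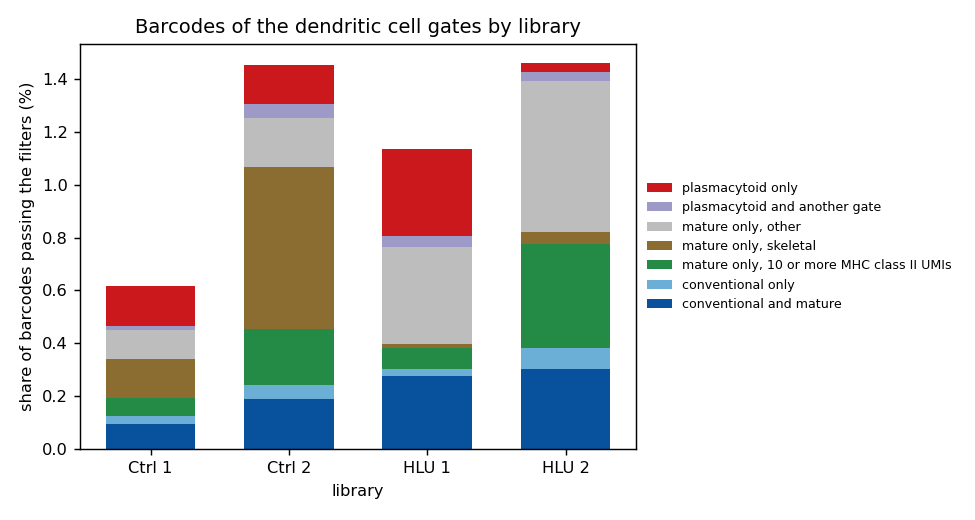
Stacked bars of the share of passing barcodes (percent, from 0) in each of 7 groups of gate membership, 1 bar per library. The mature-only group with skeletal transcripts and under 10 class II UMIs (11 and 46 barcodes) is seen almost only in Ctrl 1 and Ctrl 2, and the plasmacytoid-only group is widest in HLU 1 (25 barcodes) and narrowest in HLU 2 (3 barcodes).

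Many barcodes sat next to the limit of the mature gate and few next to the class II limit of the conventional gate. An MHC class II sum of exactly 10 was held by 2 conventional barcodes, and 2 others missed the gate with 9. A further 171 barcodes had 10 or more class II UMIs and no UMI of Flt3 or Cd209a. Of the mature barcodes, 58 sat at the minimum of 4 UMIs while 97 missed it with 3. For Siglech, 8 barcodes had 2 UMIs, 53 had 3 or more and 34 missed the gate with 1. The B cell rule removed 314 of the 645 barcodes that met the mature gate's genes, 166 of them in HLU 1.

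The names of the gates were checked against marker lists. Of 10 markers of type 1 conventional dendritic cells 7 were detected in the conventional gate, at a summed 104, 128, 99.2 and 116 CPM. Batf3, a transcription factor of this type, had a UMI in 22 of 95 barcodes, Xcr1 and Clec9a in 1 each, and Itgae, Tlr3 and Gcsam in 0. A count of 0 of 95 allows up to 3.16% of barcodes with a UMI at this depth and sets no limit on cells that express the gene. Cd209a, which marks type 2 and monocyte-derived cells, was seen in 7 of 95 conventional barcodes, so the gate rested on Flt3, with a UMI in 93. Of 10 other markers of type 2 cells 10 were detected, at a summed 362, 581, 424 and 457 CPM, with Sirpa the most abundant. In the plasmacytoid gate the type 2 list summed to 571, 682, 915 and 470 CPM. The integrin Itgax (CD11c) had a UMI in 6 of 95, while Zbtb46, a transcription factor of the conventional lineage, was seen in 31 of 95 at 51.8, 38.4, 49.6 and 57.9 CPM. The maturation list had 25 of its 26 genes detected in the conventional gate, at a summed 8884, 8311, 8042 and 8164 CPM. In the mature gate the same list summed to 3667, 3567, 6035 and 5945 CPM. Within the conventional gate, with libraries pooled, the list summed to 11252 CPM in the 69 barcodes shared with the mature gate alone. It summed to 2433 CPM in the 15 barcodes that passed the conventional gate alone. Since those 69 were selected on maturation transcripts as well, the gate is called here by its rule and not as resting conventional cells.

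Free RNA in droplets gives single UMIs in cells that do not express a gene, so each barcode was thinned to 1000 UMIs and compared with neutrophil barcodes of the same libraries. After thinning, H2-Aa was seen in 88.4% of conventional, 41.9% of mature and 24.6% of plasmacytoid barcodes and in 0.482% of 16168 neutrophil barcodes. Ccr7 was seen in 55.8%, 56.8% and 1.64%, against 0.452%. Siglech was seen in 3.16%, 0% and 49.2%, against 0.0186%. These genes were used to choose the members of their own gates, so the shares are a description. Of genes the rule did not use, Irf8 was seen in 15.8%, 12.5% and 49.2% against 0.575%, and Batf3 in 4.21%, 3.38% and 0% against 0.0247%. Dcn, which encodes the matrix proteoglycan decorin, was seen in 9.47%, 20.9% and 21.3% against 18.1% of neutrophil barcodes. These shares pool libraries that differ in Dcn, which stood at 1783, 1744, 35.5 and 58.1 CPM in their neutrophil barcodes, and the gates draw unequally on the libraries, so no order is read from them.

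**Figure D2:**
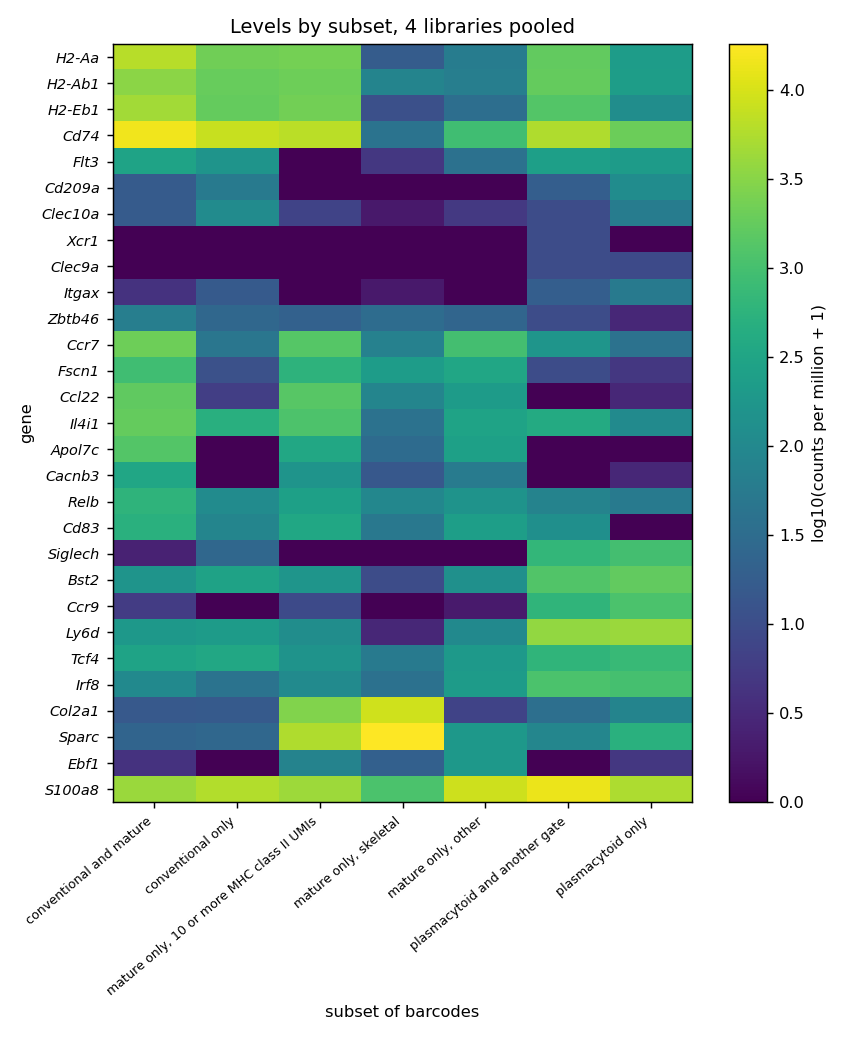
Heatmap of 29 genes by 7 groups of gate membership, coloured by log10(CPM + 1) of UMIs pooled over the 4 libraries. Class II and maturation genes are highest in the conventional and mature overlap, where their lists sum to 16115 and 11252 CPM. The class II list is low in the mature-only columns with under 10 class II UMIs, at 1264 CPM without and 241 CPM with skeletal transcripts. It is higher in the plasmacytoid-only column, at 3284 CPM. This list holds Cd74 but not H2-Aa, H2-Ab1 or H2-Eb1, whose sum had a median of 0 UMIs in plasmacytoid-only barcodes. Siglech, Ccr9 and Ly6d fill the plasmacytoid columns, and cartilage and matrix genes the mature-only column with skeletal transcripts and under 10 class II UMIs.

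The conventional gate was led by antigen presentation. Its barcodes held a median of 79 class II UMIs in a median total of 8538, and the class II medians of the libraries were 105, 113.5, 126 and 41. H2-Aa (ENSMUSG00000036594, mm10 chr17:34282744-34287823, minus strand), the alpha chain of the I-A molecule, stood at 7269, 6202, 6244 and 2315 CPM, and H2-Eb1, the I-E beta chain, at 4887, 4862, 4137 and 2214 CPM. Cd74, the invariant chain that fills the class II groove during transport, stood at 15211, 16596, 13305 and 7119 CPM. In all of these the HLU 2 library was the lowest, and HLU 1 lay within or near the range of the Ctrl libraries.

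Maturation genes stood beside those of class II in the conventional gate. Ccr7 (ENSMUSG00000037944, mm10 chr11:99144196-99155077, minus strand), the receptor for lymph node chemokines, stood at 1843, 1895, 1385 and 1079 CPM with a UMI in 80 of 95 barcodes. Il4i1, a secreted amino acid oxidase of mature dendritic cells, stood at 1377, 1695, 1294 and 1207 CPM and varied little over the libraries. Ccl22 (ENSMUSG00000031779, mm10 chr8:94745590-94751699, plus strand), a ligand of Ccr4 on T cells, stood at 1004, 465, 504 and 2075 CPM, with HLU 2 the highest. Apol7c, an apolipoprotein L gene of cross-presenting cells, stood at 663, 154, 683 and 1592 CPM, and Ccl5, a chemokine for T cells and monocytes, at 538, 1161, 500.0 and 3638 CPM. Both of these were highest in HLU 2 and Apol7c was lowest in Ctrl 2, so the spread within a group was larger than that between groups.

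Growth factor receptors and transcription factors were found in all 4 libraries of the conventional gate. Flt3 (ENSMUSG00000042817, mm10 chr5:147330741-147400489, minus strand), the receptor for the main growth factor of dendritic cells, stood at 300.3, 218, 302 and 252 CPM. Kit, the stem cell factor receptor, had a UMI in 58 of 95 conventional barcodes, at 145, 256, 385 and 281 CPM. Relb, an NF-kappaB subunit needed for maturation, stood at 404, 457, 557 and 329.9 CPM, Id2, which holds back the plasmacytoid programme, at 445, 397, 397 and 521 CPM, and Spi1, the myeloid factor PU.1, at 507, 495, 473 and 466 CPM. None of these 5 genes passed the edgeR test of HLU against Ctrl given further on. Of the 15 barcodes that passed the conventional gate alone, the leading genes after those of the gate were Cd74, Cd7, Klrd1, Il4i1 and Ifitm1, ranked by the ratio to all other barcodes. Cd7 and Klrd1 are surface proteins also known from lymphoid cells, and these 15 barcodes were not named as a type of their own.

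The mature gate held a mixture. MHC class II reached 10 UMIs in 133 of its 296 barcodes (44.9%), and its median was 5.5 class II UMIs. Which gene carried a barcode past the gate went with the other transcripts in it. Where more than 1 of Ccr7, Fscn1 and Ccl22 reached 4 UMIs, 82 of 99 barcodes held 10 or more class II UMIs and 1 had skeletal transcripts. Ccr7 alone carried 117 barcodes, of which 39 held 10 or more class II UMIs and 9 had skeletal transcripts. Fscn1 alone carried 52 barcodes, of which 3 held 10 class II UMIs and 43 had skeletal transcripts, with a median of 19618 UMIs. Ccl22 alone carried 11 barcodes, 4 of them with skeletal transcripts. The other 17 passed only by the sum of the 3 genes, 11 of them in Ctrl 2, and 10 of the 17 had skeletal transcripts.

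Skeletal transcripts split the mature gate by group of mice. Members with 0.5% or more skeletal UMIs made up 38.7% and 54.3% of the mature gate in Ctrl 1 and Ctrl 2, and 1.79% and 3.42% in HLU 1 and HLU 2, or 12, 50, 1 and 4 barcodes. All 67 passed no other gate, and 62 of them had under 10 class II UMIs. These 62 held a median of 18012 UMIs, and 24.2% had a UMI of Ptprc, the leukocyte antigen CD45, against 81.2% of the barcodes in the conventional and mature overlap. Their leading genes were Col9a1, Col11a2, Gadd45g, Col9a2 and Matn3, of which the collagens and matrilin 3 form cartilage matrix. The data go against calling these barcodes dendritic cells. For the mature gate the shares, counts of calls and some list medians of HLU against Ctrl are given with and without members with skeletal transcripts. Its levels, its values for single genes and its comparison with the conventional gate are given with all members. The 101 mature-only barcodes below both limits, with a median of 1 class II UMI, were led by Ccr7, Bcl2a1d, Cd83, Bcl2a1b, Swap70, Tmem123, Ccl4 and Etv3, and 66.3% had a UMI of Ptprc.

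**Figure D3:**
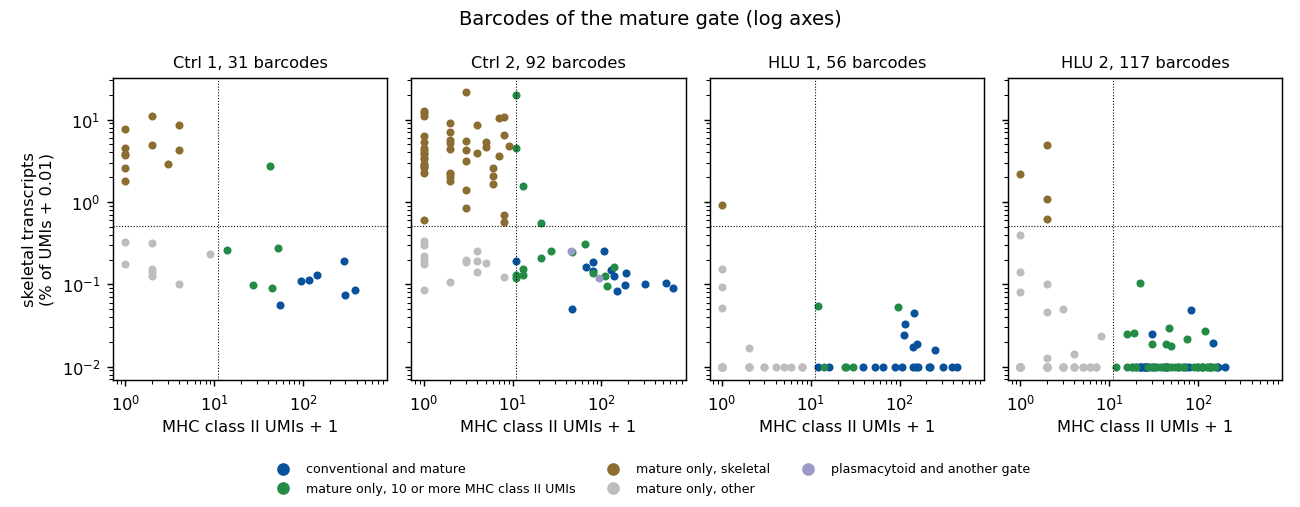
Barcodes of the mature gate in 4 panels, 1 per library, with MHC class II UMIs plus 1 on the x axis and the percent of UMIs from 19 skeletal genes plus 0.01 on the y axis, both logarithmic, coloured by group of gate membership. Dotted lines mark 10 class II UMIs and 0.5% skeletal UMIs, and the barcodes above the horizontal line number 12, 50, 1 and 4.

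Of a list of 25 plasmacytoid genes without Siglech, 24 were detected in the plasmacytoid gate, at a summed 12841, 11188, 16057 and 5582 CPM, against 2713, 2314, 3053 and 2142 CPM in the conventional gate. Siglech (ENSMUSG00000051504, mm10 chr7:55768178-55778925, plus strand), the sialic acid receptor that set the gate, stood at 844, 735, 1212 and 349 CPM. Bst2, an interferon-induced antigen of these cells in mice, stood at 1665, 1781, 1951 and 389 CPM, and Ccr9, a homing receptor for the gut, at 1094, 636, 1391 and 497 CPM. For all of these HLU 1, with 28 barcodes, was highest and HLU 2, with 6, was lowest.

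Plasmacytoid regulators and lymphoid markers took the same order. Tcf4, the transcription factor E2-2 that sets the lineage, stood at 852, 536, 854 and 322 CPM, Irf8 at 859.7, 821, 1372 and 658 CPM and Spib at 102, 86.1, 282 and 53.7 CPM. Ly6d, a lymphoid surface antigen, stood at 3994, 3211, 5530.1 and 1369 CPM, and Cox6a2, a subunit of the respiratory chain, at 531, 404, 941 and 349 CPM. HLU 2 was again the lowest for each of the 5. Of the sensing machinery, the endosomal trafficking factor Unc93b1 stood at 664, 576, 1067 and 389 CPM and the RNA sensor Tlr7 at 15.6, 19.9, 114 and 26.8 CPM. Tlr9, the DNA sensor, had a UMI in 0 of 61 barcodes, which allows up to 4.92% of barcodes with a UMI at this depth and sets no limit on cells that express it. In the HLU 2 gate 3 of the 6 barcodes also passed another gate, with a median of 5621 UMIs. The 3 that passed no other gate had a median of 21278 UMIs and so weighed more in the sums.

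The gates were also set against each other with the overlap left out and with genes of the rule not counted. Since the members were selected on genes that move with many others, these differences describe the gates and no test is read from them. Between the plasmacytoid and the conventional gate 7 of 1170 genes (0.598%) passed an adjusted p of 0.05. Irf8 stood at 825 ± 474 CPM in the plasmacytoid and 24.7 ± 28.7 CPM in the conventional gate (SD, n = 4 libraries), Cd74 at 1938 ± 366 against 8296 ± 1875 CPM, and Anxa2, a membrane scaffold protein, at 272 ± 145 against 1506 ± 994 CPM. Ccr9 stood at 908 ± 591 CPM and was at 0 in all 4 conventional sums. The other 3 of the 7 were skeletal or matrix transcripts, higher in the plasmacytoid gate, with Dcn at 5273 ± 6821 against 126 ± 156 CPM, Prg4 at 3689 ± 5169 against 106 ± 124 CPM and Mmp3 at 3466 ± 4447 against 147 ± 166 CPM. Their plasmacytoid means rested on the Ctrl libraries, where 3 members had skeletal transcripts, since Dcn and Prg4 were at 0 in both HLU libraries. These conventional sums rested on 2, 4, 2 and 7 barcodes. With the barcodes of the conventional and mature overlap put back, a choice made after seeing the data, 346 of 2327 genes (14.9%) passed, 112 higher in the plasmacytoid gate and 234 higher in the conventional one.

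Between the mature gate, members with skeletal transcripts included, and the conventional gate 78 of 2781 genes (2.8%) passed, 44 higher in the mature gate and 34 higher in the conventional one. Those furthest up in the mature gate were led by Mgp, Sparc, Scd1 and Ebf1, among which Sparc and Mgp are matrix proteins of skeletal cells, at 7901 ± 8656 and 2269 ± 3174 CPM (SD, n = 4). Those furthest up in the conventional gate included Ifitm1 at 6129 ± 2694 against 175 ± 129 CPM, the class II coactivator Ciita at 178 ± 121 against 20.9 ± 23.8 CPM, and H2-DMa, which loads peptide onto class II, at 244 ± 79.1 against 26.9 ± 14.6 CPM. With the overlap put back, 524 of 4001 genes (13.1%) passed.

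To ask whether unloading changed how many barcodes passed each gate, shares of the passing barcodes were compared over libraries. The conventional gate held 10, 22, 26 and 37 barcodes, or 0.137%, 0.294%, 0.343% and 0.416% of the library. Both HLU libraries lay above both Ctrl libraries, but the exact 95% Clopper-Pearson interval of HLU 1, 0.224% to 0.503%, held the share of Ctrl 2. The means were 0.215% ± 0.111 in Ctrl and 0.380% ± 0.0511 in HLU (SD, n = 2), with p = 0.33 in a two-sided exact permutation test, the smallest p that 2 against 2 libraries allow. When the barcodes with 1% or more skeletal UMIs were left out of the denominator, the means were 0.397% in Ctrl and 0.385% in HLU (exact permutation p = 1), and the direction turned. With barcodes thinned to 3000 UMIs the shares were 0.0913%, 0.219%, 0.298% and 0.207%, and the groups overlapped (exact permutation p = 0.667), as they did without barcodes of more than 1 gate (exact permutation p = 1).

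With all members, the groups overlapped in the other gates. The mature gate held 0.424%, 1.23%, 0.740% and 1.31% of the barcodes, with means of 0.826% ± 0.568 in Ctrl and 1.03% ± 0.406 in HLU (SD, n = 2, exact permutation p = 0.667). Without the members with skeletal transcripts the shares were 0.260%, 0.560%, 0.726% and 1.27%, so that both HLU libraries lay above both Ctrl libraries, with means of 0.410% ± 0.212 and 0.998% ± 0.384 (SD, n = 2, exact permutation p = 0.33). The members kept included 8, 14, 28 and 51 mature-only barcodes with under 10 class II UMIs. Their median over the 4 libraries was 1 class II UMI. Both HLU libraries were also the higher ones with the minimums of the gate doubled, at 0.164%, 0.414%, 0.502% and 0.854%, and with barcodes thinned to 3000 UMIs, at 0.292%, 0.529%, 0.830% and 1.05%, each with the same p in the exact permutation test. Among members with 10 or more class II UMIs the groups overlapped, at 0.164%, 0.427%, 0.357% and 0.696% (exact permutation p = 0.667). They also overlapped without putative doublets, with more haemoglobin allowed, without barcodes of more than 1 gate and with S100a8 and S100a9 under 1%. The same held with barcodes of 1% or more skeletal UMIs out of both members and denominator, which left 19, 47, 56 and 114 members. The plasmacytoid gate held 0.164%, 0.20%, 0.370% and 0.0674%, with means of 0.182% ± 0.0255 and 0.219% ± 0.214 (exact permutation p = 1). Its highest and its lowest share were both in HLU. Intervals and shares cover counting error only.

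Expression in HLU was compared with Ctrl on UMIs summed per library within each gate, with edgeR's quasi-likelihood test and Benjamini-Hochberg adjustment over all genes tested. In such sums fewer cells of a type and less RNA per cell cannot be told apart. In the conventional gate 2 of 3764 genes (0.0531%) changed at an adjusted p under 0.05, both lower in HLU, and 232 had an unadjusted p under 0.05. They were Prg4, which encodes the joint lubricant lubricin, at 207, 252, 0 and 0 CPM (at least 48.4-fold lower against a floor of 3 counts over the HLU libraries, adjusted p = 0.0215 in edgeR), and Dcn, at 289.9, 329, 7.63 and 0 CPM (log2 fold change -6.44, SE 0.70, adjusted p = 0.0248 in edgeR). Both are on the lists of skeletal genes, and neither passed with a replicate block (smallest adjusted p = 0.102 in edgeR). In neutrophil barcodes of the same libraries Prg4 stood at 908, 1503, 0.626 and 84.2 CPM and Dcn at 1783, 1744, 35.5 and 58.1 CPM. The Ctrl levels of both genes were thus lower in the conventional gate than in neutrophil barcodes, which do not make them, and the part of free RNA in the result was not tested beyond this comparison. Those next in order by p, Ctgf, Mmp3, 1500015O10Rik, Pgf, Fn1, Clec10a and Sparc, were all lower in HLU with adjusted p from 0.0575 to 0.0840, and did not pass.

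No tested gene of the antigen presentation, maturation and lineage lists passed in the conventional gate. Of the class II presentation list, which leaves out H2-Aa, H2-Ab1 and H2-Eb1, 9 of 14 genes were tested and 0 passed. Its median log2 fold change was -0.36, against 0.01 over all genes tested. Cd74 was lower in both HLU libraries than in both Ctrl libraries, as were 14.1% of all genes tested. Of the maturation list 21 of 26 were tested and 0 passed, with 5 lower and 1 higher without overlap (14.1% and 24.8% of all genes). Ccr7, which is not on that list, was lower in both HLU libraries, by a log2 fold change of -0.72 with a standard error of 0.29 (adjusted p = 0.803 in edgeR). Of 17 transcription factors 15 were tested, of 13 cytokine and growth factor receptors 12, and of 11 costimulation genes 8, and 0 passed in each. Clec10a, a lectin of type 2 cells, stood at 62.1, 107, 3.82 and 2.89 CPM from 7 barcodes (log2 fold change -4.66, SE 0.73, adjusted p = 0.0840 in edgeR), and at 0.0831, 0.406, 0.73 and 0.0197 CPM in neutrophil barcodes. Of the type 2 list 6 of 10 genes were tested and 0 passed, with 1 higher and 1 lower without overlap and a median log2 fold change of 0.23. Retnlg, a neutrophil transcript, stood at 82.8, 89.6, 370.2 and 399 CPM (log2 fold change 2.03, SE 0.36, adjusted p = 0.154 in edgeR), and at 7887, 9385, 10681 and 3589 CPM in neutrophil barcodes. Of the neutrophil list 9 of 10 genes were tested and 0 passed, 5 with a log2 fold change below 0 and a median of -0.62, and the list summed to 41863, 1981, 4901 and 24574 CPM. The Ctrl 1 sum, over 96576 UMIs, included 1 putative doublet that also passed the plasmacytoid gate. This barcode held 17199 UMIs, 19.1% of them from S100a8 and S100a9.

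In the mature gate 447 of 7841 genes (5.7%) changed, 408 of them lower in HLU (5.2%) and 39 higher (0.497%). The largest falls were those of Matn3, of cartilage matrix, at 424, 365, 0 and 0 CPM (at least 202-fold lower against the same kind of floor, adjusted p = 0.0105 in edgeR), Pth1r, the parathyroid hormone receptor of skeletal cells, Syt8, Bglap, the bone matrix protein osteocalcin, and Fxyd6. Of the 19 skeletal genes 7 were among the calls. The 39 higher genes became 57 with a replicate block, 44 with DESeq2, 26 without putative doublets, 11 with S100a8 and S100a9 under 1%, and 0 without the members with skeletal transcripts. The largest rises were those of Mrgpra2b, Chil3, Lpl, Ccl4 and Cd177. Chil3, a chitinase-like protein of neutrophils and macrophages, stood at 5.44, 23.2, 309 and 613 CPM (log2 fold change 4.56, SE 0.68, adjusted p = 0.0189 in edgeR), and Ccl4, an inflammatory chemokine, at 13.6, 120.4, 1973 and 1382 CPM (log2 fold change 4.29, SE 0.88, adjusted p = 0.0405 in edgeR). Cd177 is a surface protein of neutrophils, and of the neutrophil list 3 of 10 genes rose, with 9 higher without overlap against 36.3% of all genes tested. The summed level of that list in the mature gate was 1174, 4975, 19323 and 24994 CPM, with S100a9 its most abundant gene.

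Most calls in the mature gate were lost when its members with skeletal transcripts were left out. Then 2 of 5543 genes passed, Dcn and 1500015O10Rik, neither of them among the 447. Among members with 10 or more class II UMIs 8 genes passed, 2 of them among the 447, and the list was Prg4, Fn1, 1500015O10Rik, Ero1l, Dcn, Tgfb2, Mgp and Cytl1. Both alternatives were chosen after seeing the data. The folds of some lists stayed as large. The neutrophil list had a median log2 fold change of 2.80 with all members and 3.11 without those with skeletal transcripts. In the latter 0 of 10 genes passed and 9 had an unadjusted p under 0.05, as did 320 of all 5543 genes tested. The cartilage list had medians of -4.59 over 10 genes and -4.67 over 6. Leaving out a Ctrl library, and so keeping 1, gave 80 calls without Ctrl 1 and 0 without Ctrl 2. The maturation list had a median log2 fold change of 0.58 with all members, against -0.02 over all genes tested, and -0.38 without those with skeletal transcripts, so its direction turned. The class II list turned also, from a median of 0.37 over 9 genes to -0.66 over 8, with 0 passing either way. Of the 22 maturation genes tested with all members, 1 passed, and it was lower in HLU, as were 5.2% of all genes tested, while 15 were higher and 2 lower without overlap (36.3% and 21.8% of all genes tested).

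In the plasmacytoid gate 45 of 2391 genes (1.88%) changed, 44 of them lower in HLU (1.84%) and 1 higher (0.0418%). With a replicate block 5 passed, all lower in HLU, namely Mmp3, 1500015O10Rik, Dcn, Prg4 and Chad. Of the neutrophil list 6 of 10 genes were tested and 1 fell, with 5 log2 fold changes below 0 and a median of -2.60. That list summed to 48301, 9811, 18134 and 886 CPM. The Ctrl 1 sum, over 127948 UMIs, included the putative doublet shared with the conventional gate. That barcode held 17199 UMIs, 19.1% of them from S100a8 and S100a9. The largest fall among the 45 was that of 1500015O10Rik, at 3275, 18741, 0 and 0 CPM (adjusted p = 0.0180 in edgeR). Dcn, Prg4, Mmp3 and Comp came next by fold change, and 9 of the 19 skeletal genes were among the calls. Dcn stood at 5909, 11214, 0 and 0 CPM (at least 986-fold lower, adjusted p = 0.0035 in edgeR), Mmp3, a matrix protease, at 8089, 3628, 3.81 and 0 CPM (adjusted p = 0.0035 in edgeR), and Comp, of cartilage matrix, at 1266, 1311, 0 and 0 CPM (at least 145-fold lower, adjusted p = 0.0073 in edgeR). In neutrophil barcodes Mmp3 stood at 599, 831, 25.2 and 119.6 CPM and Comp at 377, 270.1, 12.5 and 4.19 CPM. The Ctrl levels in the plasmacytoid gate were above those in neutrophil barcodes, and 3 members of the gate, all in Ctrl, had 0.5% or more skeletal UMIs. Without these 3, 5 genes passed, all lower in HLU, namely Dcn, Hspa1a, Prg4, Mmp3 and Hspa1b. The fitted log2 fold change of Dcn went from -13.48 to -9.00 and that of Mmp3 from -10.80 to -6.11 when the 3 were left out, values that depend on the prior count of the fit where HLU sums are at or near 0.

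The single rise in the plasmacytoid gate was that of Phgdh, the first enzyme of serine synthesis, at 39.1, 19.9, 282 and 309 CPM (log2 fold change 3.13, SE 0.59, adjusted p = 0.0498 in edgeR). In neutrophil barcodes it stood at 14.0, 22.3, 21.5 and 121 CPM. The call was lost without the 3 members with skeletal transcripts (adjusted p = 0.155 in edgeR), without putative doublets (0.102), without barcodes of more than 1 gate (0.0701), with S100a8 and S100a9 under 1% (0.0547), with a replicate block (0.170), and without Ctrl 1 (0.136) or Ctrl 2 (0.569). It was kept with DESeq2, with no filter on low counts, with the transcripts of other cells removed, and without HLU 1 or HLU 2, and with 1 library left out in turn the log2 fold change ran from 2.64 to 3.62. Of the plasmacytoid list 19 of 25 genes were tested in this gate and 0 passed, with a median log2 fold change of -0.04, against -0.01 over all genes tested.

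**Figure D4:**
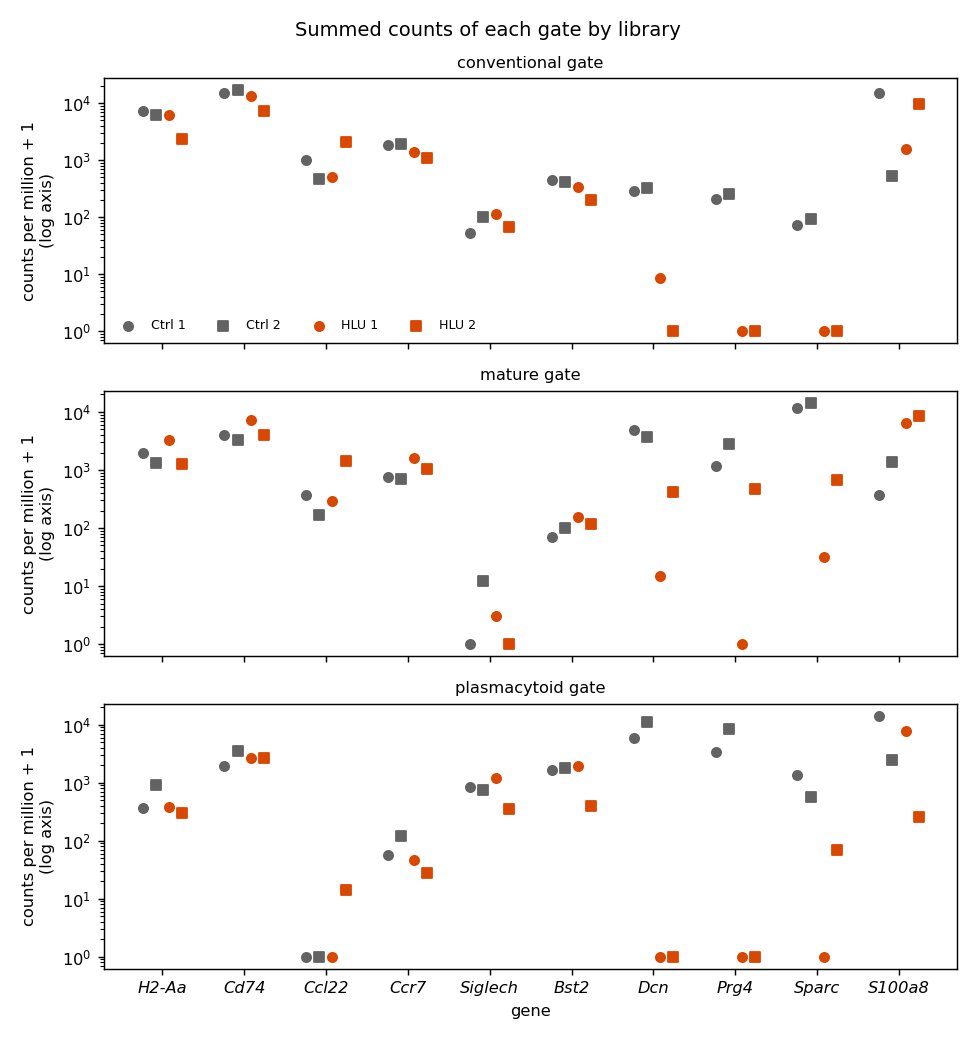
CPM plus 1 on a logarithmic axis for 10 genes in the conventional, mature and plasmacytoid gates, 1 point per library, with Ctrl and HLU in different colours. Dcn, Prg4 and Sparc separate Ctrl from HLU in each gate, whereas H2-Aa overlaps in the conventional, Ccl22 in the mature and Siglech in the plasmacytoid gate. Ccr7 is higher in both HLU libraries in the mature gate with all members, as are 36.3% of all genes tested (adjusted p = 0.364 in edgeR). H2-Aa, Ccl22, Siglech and Ccr7 were used to choose the members of these gates, so their levels there are a description only.

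Of 13 targets of hypoxia-inducible factors 9 fell in the mature gate (5.2% of all genes tested), and 0 of 13 passed there without the members with skeletal transcripts. In the other gates 0 passed. These factors turn on glycolysis and related genes when oxygen is short. In the conventional gate 10 of 13 targets were tested and 0 passed, with 9 at an unadjusted p under 0.05 (232 of all 3764 genes tested). Of the targets 8 were lower in both HLU libraries than in both Ctrl libraries (14.1% of all genes tested), and the median log2 fold change was -1.96 against 0.01. Pgk1, a glycolytic kinase, stood at 1191, 1477, 538 and 197 CPM (log2 fold change -1.99, SE 0.47, adjusted p = 0.396 in edgeR), and Ndrg1 at 93.2, 81.1, 15.3 and 14.5 CPM (log2 fold change -2.60, SE 0.53, adjusted p = 0.303 in edgeR). In the mature gate all 13 were lower without overlap (21.8% of all genes tested), with a median of -3.12. Slc2a1, the glucose transporter Glut1, stood at 375, 703, 38.3 and 42.7 CPM (log2 fold change -3.97, adjusted p = 0.0115 in edgeR). P4ha1, which hydroxylates collagen, stood at 446, 504, 60.5 and 33.6 CPM (log2 fold change -3.61, adjusted p = 0.0115 in edgeR).

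The counts for these targets changed with the members used. Without the mature members with skeletal transcripts 9 of 13 had an unadjusted p under 0.05, as did 320 of all 5543 genes tested, and the median was -1.88. Among mature members with 10 or more class II UMIs 12 were tested, 1 fell (8 of all 3857 genes tested), 10 had an unadjusted p under 0.05 (256 of all), and the median was -2.36. With a replicate block 8 of 13 fell, as did 451 of all 7841. In the plasmacytoid gate 8 were tested, 0 passed, 6 were lower without overlap (10.7% of all genes tested) and the median was -1.57. In neutrophil barcodes Pgk1 stood at 1636, 1733, 1749.6 and 239 CPM and Ndrg1 at 69.9, 93.9, 49.8 and 7.12 CPM, so that HLU 2 was low there also while HLU 1 was nearer to Ctrl. Genes induced by tissue dissociation also had falls. In the mature gate 4 of 16 tested fell (5.2% of all genes tested), with a median log2 fold change of -1.65, and without the members with skeletal transcripts 0 of 15 passed, with a median of -0.39. In the plasmacytoid gate 2 of 12 fell, Hspa1a and Hspa1b (1.84% of all genes tested), and 0 of 12 passed with a replicate block. In neutrophil barcodes the heat shock gene Hspa1a stood at 1171, 288, 174 and 1.79 CPM. The parts of oxygen, handling and library in these differences were not tested.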

How the data were processed

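Single-cell RNA was captured from digested bone of 2 Ctrl and 2 HLU mice with the 10x Genomics 3′ kit. Per the labels, the submitters' processing notes name Cell Ranger 6.0.0, Seurat 4.1.0 and mm10. The deposited matrices hold raw UMI counts per gene and barcode, not normalized. Reads were counted from 3′ tags, so levels do not scale with gene length, and overlapping genes cannot be told apart where they share a tag.

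Filters and gates were applied in Python 3.11.15 (numpy 2.4.6, scipy 1.17.1, pandas 2.3.3, scanpy 1.11.5 with its Scrublet caller), and figures drawn with matplotlib 3.10.9. Putative doublets were kept and removed in an alternative. Counts were summed per library and gate, and tested in R 4.3.3 with edgeR 4.0.16 (quasi-likelihood test, TMM, low counts removed with filterByExpr, Benjamini-Hochberg adjustment), with DESeq2 1.42.0 as an alternative. Comparisons of gates had library as a covariate. Standard errors are the absolute log2 fold change over the square root of F. The test was tried on simulated counts with known changes. Gene positions are from GENCODE M21 (30934 of 31053 genes matched).

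The gates, members and gene lists were chosen with earlier results of these data known. Named genes were those of the gates, the 5 largest rises and falls among calls without overlap between groups (the 10 smallest p-values where fewer than 5 were called), the 8 largest differences each way between gates, the most abundant genes and all receptors, transcription factors and markers of each list, and the apoptosis and glutamine genes of the study. Others, such as those of the hypoxia list and the leading genes of subgroups, were chosen after their values were seen. Alternatives were DESeq2, other count filters, doublets, denominators, gate overlap, neutrophil transcripts, a replicate block and leaving out each library. Leaving out members with skeletal transcripts or under 10 class II UMIs, and keeping the overlap, were added after seeing the data. Library totals were 47819046 to 99849070 UMIs.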

Additional observations from a re-analysis of the deposited data

How the results depend on the processing

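Shares first: skeletal barcodes were left out of the denominator and, where they were members, of the gate. The difference of HLU from Ctrl then turned to -0.0120 percentage points in the conventional gate and to -0.0862 in the plasmacytoid gate. Conventional members stayed the same, while plasmacytoid members went from 12 and 15 to 10 and 14 in Ctrl 1 and Ctrl 2. With members of 10 class II UMIs the plasmacytoid difference turned to -0.0104. Leaving out 1 library in turn gave 0.0860 to 0.243 points in the conventional gate, -0.200 (without Ctrl 1; -0.0861 without HLU 2) to 0.603 in the mature gate and -0.115 (without HLU 1) to 0.188 in the plasmacytoid gate. The other share settings, 31 in all, kept their direction but not always their size. The mature difference, 0.201 points at first, was 0.588 without skeletal members, 0.529 thinned to 3000 UMIs, 0.389 with minimums doubled and 0.0655 without barcodes of more than 1 gate. The conventional one, 0.164 at first, was 0.0122 without barcodes of more than 1 gate. The plasmacytoid one, 0.0365 at first, was 0.112 thinned to 3000 UMIs and 0.0139 with the minimum doubled.

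Counts of genes passing an adjusted p of 0.05 moved more. In the conventional gate, 2 with the filter and edgeR, there were 10 with DESeq2, 80 with no filter on low counts, 4 without barcodes of more than 1 gate, and 0 with 10 counts in every library, with the transcripts of other cells removed or with a replicate block; leaving out 1 library gave 8 to 189, the most without HLU 1. In the mature gate, 447 with all members, there were 1420 with no filter, 104 with 10 counts in every library, 8 with 10 class II UMIs and 2 without skeletal members, and leaving out 1 library gave 0 (without Ctrl 2) to 1471 (without HLU 1), with 80 without Ctrl 1 and 843 without HLU 2. In the plasmacytoid gate, 45 with all members, there were 153 with no filter, 22 without putative doublets, 5 with a replicate block, 5 without skeletal members and 0 with 10 counts in every library or with 10 class II UMIs, and leaving out 1 library gave 67 to 305, the most without HLU 1 (92 without HLU 2, 72 without Ctrl 2).

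Between plasmacytoid and conventional gates, 7 at first, there were 18 with DESeq2, 72 with no filter, 3 with 10 counts in every sum, 11 with S100a8 and S100a9 under 1%, 346 with the overlap kept and 0 (without Ctrl 1, Ctrl 2 or HLU 1) to 14 (without HLU 2) with 1 library left out. Between mature and conventional gates, 78 at first, there were 511 with no filter, 8 with 10 counts in every sum, 524 with the overlap kept and 29 (without Ctrl 2) to 110 with 1 library left out. The cause of these moves was not tested, except that filters and left-out libraries change the genes and libraries tested. Of the named genes 358 values kept their direction and side of the threshold, 67 lost and 33 gained a call, and 0 turned. DESeq2 scaling shifted the median of all genes by at most 0.04 on the log2 scale.

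Replicate numbers are shared by the groups, but the deviations of libraries with the same number correlated at -0.02, 0.04 and -0.03 in the 3 gates over genes, so the numbers were not taken as pairs. The block changed the mature count to 508, of which 402 were among the 447.

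On simulated counts with 4-fold changes, 76 of 198 genes were recovered in the plasmacytoid gate (615909 UMIs), 133 of 200 in the conventional (938382 UMIs) and 117 of 200 in the mature gate (3127531 UMIs), with 4, 5 and 4 false calls. Between the plasmacytoid and conventional gates 178 of 200 were recovered with 15 false calls, and between the mature and conventional gates 153 of 200 with 4. With 1 library left out, the lone library of its group is assumed to vary like the others.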

Other observations

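Genes of the intrinsic apoptosis pathway, which the study followed in monocytes, were looked up in the dendritic cell gates. Bax, which opens the outer mitochondrial membrane, stood at 197, 265, 298 and 379 CPM in the conventional gate for Ctrl 1, Ctrl 2, HLU 1 and HLU 2, at 226, 220.2, 355 and 496 CPM in the mature gate and at 133, 172, 244 and 335 CPM in the plasmacytoid gate. Both HLU libraries lay above both Ctrl libraries in each gate, as did 24.8%, 36.3% and 26.8% of all genes tested, and the adjusted p-values in edgeR were 0.867, 0.287 and 0.998. The mature values here include members with skeletal transcripts, 38.7% and 54.3% of the gate in Ctrl and 1.79% and 3.42% in HLU. Bak1, its relative, stood at 20.7, 34.1, 68.7 and 75.2 CPM in the conventional gate and at 13.6, 18.9, 62.5 and 59.0 CPM in the mature gate (log2 fold change 1.58, SE 0.39, adjusted p = 0.0701 in edgeR). Mcl1, a survival member of the family, was at 414, 1046, 538 and 246 CPM in the conventional gate (adjusted p = 0.809 in edgeR), and Xiap, the caspase inhibitor, at 82.8, 29.9, 61.1 and 60.8 CPM (adjusted p = 0.965 in edgeR). The groups overlapped for both genes there and in the mature gate. In the plasmacytoid gate Mcl1 stood at 531, 496, 419 and 121 CPM, lower in both HLU libraries (10.7% of all genes tested). Xiap stood at 39.1, 53.0, 83.8 and 80.5 CPM, higher in both (26.8%), each with adjusted p = 0.998 in edgeR. Of the family list 10 of 16 genes were tested in the conventional, 15 in the mature and 7 in the plasmacytoid gate, and 0 passed in each. Bcl2 and Diablo were too low to be tested in the conventional gate.

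Of 12 genes of glutamine uptake and use 9 were tested in the conventional, 12 in the mature and 6 in the plasmacytoid gate, and 0 passed in each. The glutamine transporter Slc1a5 stood at 81.6, 49.0, 68.6 and 56.3 CPM in the mature gate (log2 fold change -0.27, SE 0.38, adjusted p = 0.724 in edgeR). Slc38a1, another transporter of the list, was higher in both HLU libraries in each gate, as were 24.8%, 36.3% and 26.8% of all genes tested, and passed in none. Of the genes tested from the list, 3 of 9, 4 of 12 and 1 of 6 were higher in this way, and 0, 1 and 0 lower.

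Transcripts of dividing cells were highest in HLU 2 in the plasmacytoid gate, where the division list summed to 742, 113, 1006 and 2831 CPM. Top2a, which untangles DNA before division, stood at 54.7, 0, 99.1 and 429 CPM and Stmn1, which acts on the spindle, at 86.0, 19.9, 114 and 577 CPM there, with 6 barcodes in HLU 2. Of these 6, the 3 that passed no other gate had a median of 21278 UMIs, against 5621 in the 3 that did. Of 17 division genes 5 were tested and 0 passed, with a median log2 fold change of 1.60 against -0.01 over all genes tested. Higher in both HLU libraries were 3 of the 5 (26.8% of all genes tested), and 2 had an unadjusted p under 0.05 (139 of all 2391). Chemokines of the mature gate other than Ccl4 did not pass, with Ccl3 at 10.9, 171, 367 and 688 CPM and Ccl5 at 177, 304, 393 and 4092 CPM. In neutrophil barcodes Ccl4 stood at 109, 129, 73.6 and 161 CPM and Chil3 at 2669, 2384, 2921 and 6228 CPM. Isg15, induced by interferon, stood at 31.1, 81.1, 34.4 and 329.9 CPM in the conventional gate and at 32.6, 28.4, 20.2 and 271 CPM in the mature gate, highest in HLU 2 in both.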
